A study of Mus musculus with 6 samples.

Results

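The 44 genes described here encode proteins of fatty acid uptake and mitochondrial beta-oxidation, with related ones such as thioesterases, uncoupling proteins and lipid droplet proteins. They were taken as a list of gene names by pathway membership, drawn up with earlier results of these data known but by a rule that uses no measured value, and all 44 have probes on the array, out of 27307 genes with a symbol. Of these, 41 passed the filter on dim probes (13747 of all genes did), and each of the 41 was well above background on all 6 arrays.

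The hearts came from male C57BL/6J mice with *Clk4* fl/fl alleles and the *α-MHC-MerCreMer* transgene, in which tamoxifen switches on Cre recombinase in cardiomyocytes and removes the kinase gene *Clk4* (*Clk4*-cKO). By the labels, both groups carried this deletion. One group of 3 received an adeno-associated virus of serotype 9 with wild-type nexilin (AAV NEXN-WT), the other group of 3 received the same vector with NEXN-S437E, which places a glutamate where CLK4 phosphorylates a serine of this Z-disk protein, and RNA of each myocardium was read on its own Agilent array with 1 dye. The virus was given intravenously and expressed nexilin from the CMV promoter, which is not restricted to cardiomyocytes. The labels give no age at collection, no hearts labelled as having intact *Clk4* were analysed here, and an exact permutation test of 3 hearts against 3 has a smallest two-sided p of 0.1. The question asked of the data is how transcripts of fatty acid use differed between hearts given the phosphorylation mimic and hearts given the wild-type protein.

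The adult heart draws most of its energy from fatty acids. Lipoprotein lipase frees them from circulating triglycerides, CD36 and transport proteins move them into the cell, acyl-CoA synthetases activate them, and the carnitine shuttle brings them into the mitochondrion. Acyl-CoA dehydrogenases, hydratases, hydroxyacyl-CoA dehydrogenases and thiolases then shorten the chain step by step, and the electron transfer flavoprotein hands the electrons to the respiratory chain. Many of these genes are known targets of the nuclear receptor PPAR-alpha, and their transcripts are known to be lower in the failing heart than in the healthy heart.

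Some facts about the arrays bear on every value. The array of NEXN-WT replicate 1 stood apart, with a mean absolute log2 difference of 0.37 and 0.43 from the other NEXN-WT arrays, where the remaining pairs of arrays without it differed by 0.19 to 0.32. All 3 NEXN-WT arrays and NEXN-S437E replicate 1 lay in slide row 1 and the other 2 arrays in row 2. Before scaling, the 75th percentile of probes well above background was 1519, 1049 and 943.6 on the NEXN-WT arrays. It was 692.1, 991.1 and 876 on the NEXN-S437E arrays. The median log2 level of the listed genes after scaling was 2.7, 2.97 and 2.98 against 3.28, 3.39 and 3.42. The brightest array thus had the lowest median with NEXN-WT, and the dimmest with NEXN-S437E. The part of overall signal in the differences was not tested. The *Esr1* probe A_55_P2030883, named for the estrogen receptor gene, part of which MerCreMer also carries, was at 0.65, 3.23 and 2.60 in the hearts labelled NEXN-WT and at −7.95, −8.26 and −8.03 in the hearts labelled NEXN-S437E. None of the latter 3 arrays read it well above background (0 of 3), which makes it at least 268.7-fold lower there. Of 7 *Esr1* probes, 2 others were tested and differed far less. A_52_P237077 was not well above background on the NEXN-S437E arrays and at least 1.64-fold lower there, and A_65_P17231 differed by −0.66 with overlap (unadjusted p = 0.0892 from limma). Whether the probe A_55_P2030883 reads the transgene was not tested, and the arrays do not show whether the mice labelled NEXN-S437E carried MerCreMer and had lost *Clk4*. If they had not, the comparison would also be one of intact against deleted *Clk4*. Every difference given here is therefore between the hearts as labelled, and the signal of this probe, the state of *Clk4* and the virus cannot be told apart. The *Clk4* probe A_52_P445387 was at −1, −1.47 and −1.31 with NEXN-WT and at −1.16, −1.46 and −0.99 with NEXN-S437E, and the *Nexn* probe A_52_P367520 at 1.36, 0.76 and 0.64 against 0.53, 0.79 and 1.27, both with overlap between the groups. With no exon placement of the probes, neither checks the deleted part of *Clk4* or tells the viral from the endogenous nexilin transcript.

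Upstream sequences of 5 members, chosen by hand, are shown as examples. RefSeq sequences on GRCm38.p6 were matched by symbol for 35 of the 44 members, with 39 start sites, and each stretch holds the 250 bases before an annotated start, on the strand of the gene. *Acadm* and *Echs1* were both higher with NEXN-S437E, while *Cpt1a* was not, and the upstream stretch of each of them holds the letters AGGTCA, the core letters read by PPAR-alpha and related nuclear receptors. Capitals mark AGGTCA on either strand in these 3 stretches, at chr3:153944644-153944893 on the minus strand for *Acadm*, chr7:140116422-140116671 on the minus strand for *Echs1* and chr19:3323051-3323300 on the plus strand for *Cpt1a*.
Acadm: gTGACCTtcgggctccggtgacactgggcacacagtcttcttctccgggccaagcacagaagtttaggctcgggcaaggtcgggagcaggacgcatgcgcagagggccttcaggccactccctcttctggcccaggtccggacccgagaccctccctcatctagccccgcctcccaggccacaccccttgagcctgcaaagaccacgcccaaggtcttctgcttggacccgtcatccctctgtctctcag
Echs1: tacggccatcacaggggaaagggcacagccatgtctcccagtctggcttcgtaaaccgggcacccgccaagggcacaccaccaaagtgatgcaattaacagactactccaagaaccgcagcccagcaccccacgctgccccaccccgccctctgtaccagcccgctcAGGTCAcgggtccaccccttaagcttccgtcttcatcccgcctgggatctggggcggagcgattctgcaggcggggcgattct
Cpt1a: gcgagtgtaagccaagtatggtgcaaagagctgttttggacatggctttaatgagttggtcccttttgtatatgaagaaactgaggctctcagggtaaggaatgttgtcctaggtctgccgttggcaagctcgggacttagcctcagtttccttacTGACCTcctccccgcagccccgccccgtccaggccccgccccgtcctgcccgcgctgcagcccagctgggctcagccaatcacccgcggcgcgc

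The other 2 stretches belong to *Hadhb*, at chr5:30155003-30155252, and *Ech1*, at chr7:28825088-28825337, both on the plus strand, with capitals marking CCGCCC on either strand, the core of the GC box. *Hadha* and *Hadhb*, which encode the subunits of the mitochondrial trifunctional protein, start in opposite directions from chr5:30154980 and chr5:30155253 with 272 bases between them, so the *Hadhb* stretch is also the upstream region of *Hadha*.
Hadhb: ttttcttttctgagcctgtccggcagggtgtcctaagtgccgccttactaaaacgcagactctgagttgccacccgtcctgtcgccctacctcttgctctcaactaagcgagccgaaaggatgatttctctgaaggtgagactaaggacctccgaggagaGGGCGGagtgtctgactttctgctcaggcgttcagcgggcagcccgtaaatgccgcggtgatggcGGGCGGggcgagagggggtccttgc
Ech1: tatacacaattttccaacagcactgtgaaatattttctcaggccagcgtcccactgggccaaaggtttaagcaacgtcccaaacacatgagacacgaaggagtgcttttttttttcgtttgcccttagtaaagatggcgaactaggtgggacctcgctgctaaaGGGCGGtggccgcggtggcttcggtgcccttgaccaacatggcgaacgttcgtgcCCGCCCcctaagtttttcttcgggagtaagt

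Of the 39 stretches, 7 held AGGTCA on either strand (17.9%), against 14.0% of 32851 RefSeq stretches of the same length. These 7 belong to *Cd36*, *Acadm*, *Acadvl* and *Echs1*, which were higher at an unadjusted p under 0.05, and to *Cpt1a*, *Ucp3* and *Plin5*, which did not pass it. A direct repeat of AGGTCA with 1 base between the copies was found in 0 of the 39 (0.0335% of all stretches) and TNAAGGTCA, the longer element of the estrogen-related receptors, which contains AGGTCA, in 0 of the 39 (1.14% of all stretches). At shares this low, 39 stretches are too few to set the members apart, and only exact letters within 250 bases were searched. CCGCCC was found in 27 of the 39 (69.2%), against 32.7% of all stretches. These 27 belong to 25 genes, of which 14 were higher at an unadjusted p under 0.05, 9 did not pass it and 2 were not tested. A match of letters is a description of the sequence and not evidence of binding.

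Transcripts of fatty acid uptake and mitochondrial beta-oxidation were higher in the hearts given NEXN-S437E, by moderate amounts. In limma, 26 of the 41 tested members were higher at an unadjusted p under 0.05 (63.4%), where 7.83% of all tested genes were, and 0 were lower, where 10% of all tested genes were. None of the 41 (0) passed a Benjamini-Hochberg adjusted p of 0.05 in limma, as 0.182% of all genes did, and the smallest adjusted p of a member was 0.145. The members' median log2 fold change was 0.47, against −0.004 for all genes. The enzymes of the later steps of the cycle and the electron transfer proteins were higher almost throughout, while the acyl-CoA synthetases and the uncoupling and lipid droplet proteins gave no call. The largest differences were those of the thioesterase *Acot1* (1.09 on the log2 scale), the isomerases *Ech1* (0.88) and *Eci1* (0.84) and the reductase *Decr1* (0.85).

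A probe is called detected where it is well above background. Levels are on the log2 scale relative to each array's 75th percentile over detected probes, so that 0 is that percentile, and a difference is NEXN-S437E minus NEXN-WT. In 32 of the 41 members all 3 NEXN-S437E arrays lay above all 3 NEXN-WT arrays (15.2% of all genes did so), in 0 they all lay below (14.8%), and in 9 the groups overlapped. One member, *Acot1*, was at least 2-fold higher at an unadjusted p under 0.05, as were 0.604% of all genes. In 36 members the difference was positive and in 5 negative.

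**Figure D1:**
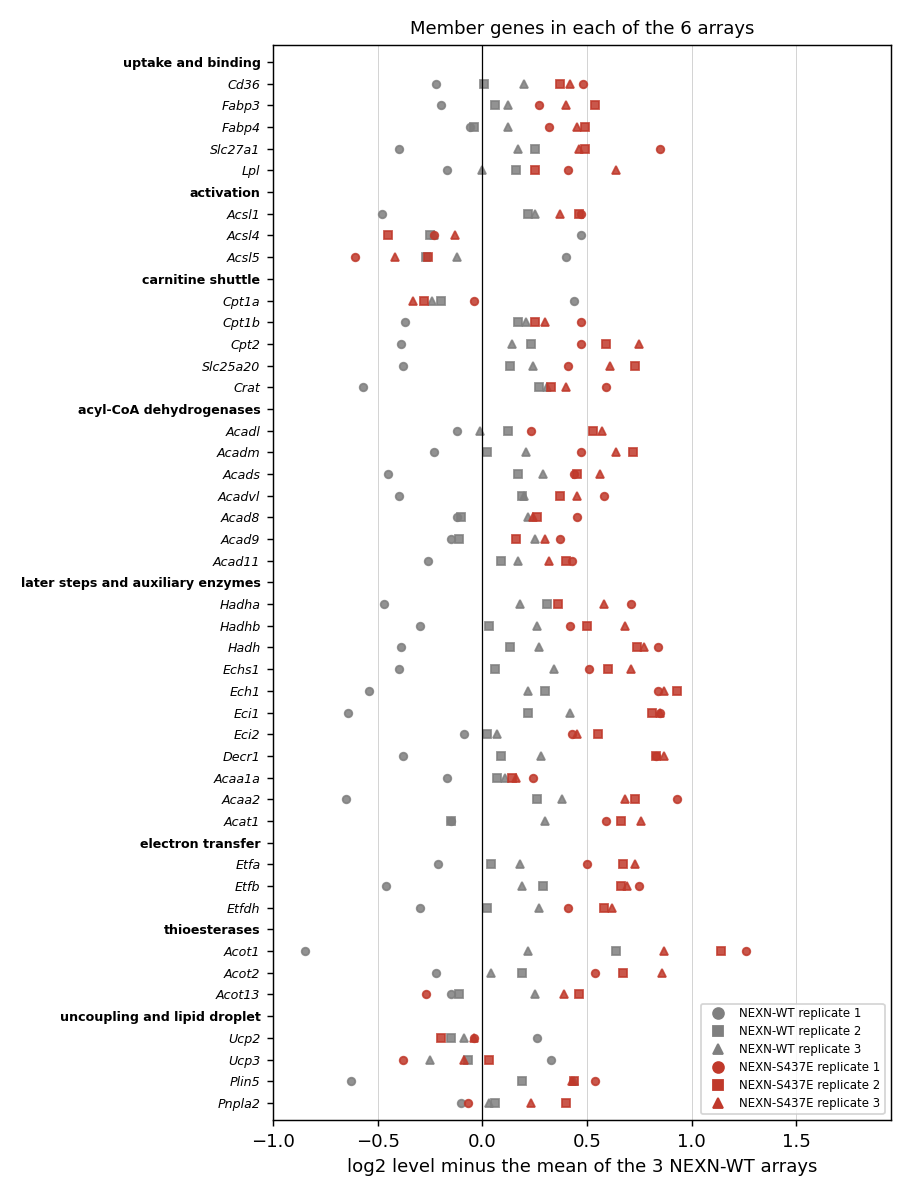
Each point is the log2 level of a member gene (rows, grouped by role) on 1 array, minus the mean of the 3 NEXN-WT arrays. Gray marks NEXN-WT and red NEXN-S437E, with a circle, square and triangle for replicates 1, 2 and 3. The red points lie to the right of all gray points in 32 of 41 rows, and the gray circle of NEXN-WT replicate 1 is the lowest point in 34.

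NEXN-WT replicate 1, the array that stood apart, was the lowest of the 6 arrays in 34 of the 41 members (82.9%) and in 31.6% of all genes, so the members were read again without it. Then 21 members were higher at an unadjusted p under 0.05 in limma (5.98% of all genes), all of them among the 26, and 0 were lower (8.27%). The 5 that no longer passed were *Acad11*, *Acadvl*, *Fabp3*, *Hadha* and *Lpl*, and the median difference was 0.348. Without this array 39 of the 41 members were positive, since *Cpt1a*, *Ucp2* and *Ucp3* turned from negative to values near 0, and no positive member turned negative. Within slide row 1, NEXN-S437E replicate 1 exceeded the mean of the 3 NEXN-WT arrays in 34 of the 41 members, by a median of 0.46 (0.02 over all genes). That mean includes NEXN-WT replicate 1, and the other NEXN-WT arrays were not set alone against NEXN-S437E replicate 1. The limma fit with the slide row as a block rests on NEXN-S437E replicate 1 against the 3 NEXN-WT arrays and assumes that the lone array varies like the others. It called 5 members higher in place of 26 (3.08% of all genes), 4 of them in the later steps and *Slc27a1* among the uptake genes, and 0 in each other role. As row 2 holds no NEXN-WT array, slide row and group cannot be fully told apart.

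Brighter probes differed more between the groups over the whole array, and most members are bright. Among genes with a mean level above 4 the median difference was 0.27 for all 398 genes and 0.62 for the 12 members, of which 11 were higher at an unadjusted p under 0.05, as were 24.6% of all genes in this range. Between 2 and 4 the medians were 0.16 for 1082 genes and 0.46 for 16 members, and between 0 and 2 they were 0.04 for 2514 genes and 0.41 for 4 members. Quantile normalization, which forces equal distributions on the arrays, brought the medians of all genes above 4 to 0.03 and that of the members to 0.43. Other bright genes were thus higher too with the percentile scaling, and hardly so with quantile normalization. The median of the members lay above that of all genes in each range over −2 with both.

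**Figure D2:**
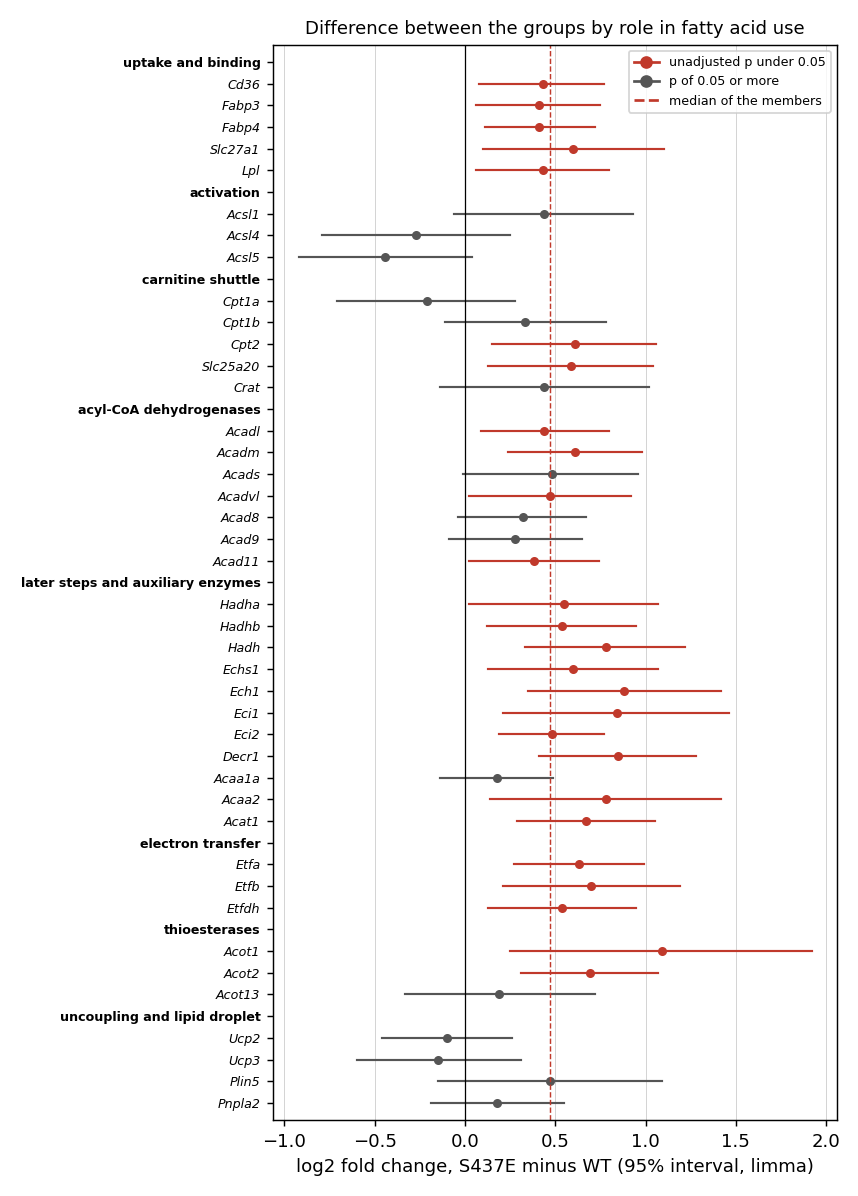
Points are log2 fold changes (NEXN-S437E minus NEXN-WT) of the 41 tested members from limma, with 95% intervals, in rows grouped by role. Red marks an unadjusted p under 0.05 (26 genes), and the dashed line is the median of the members, 0.47. Of the later steps 10 of 11 genes are red, and of the electron transfer proteins 3 of 3.

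All 5 tested genes of fatty acid uptake and binding were higher at an unadjusted p under 0.05 in limma, and all 5 without overlap between the groups. The count ran from 1 (without NEXN-S437E replicate 3) to 4 when 1 array was left out, and was 2 with the replicate number as a block. With quantile normalization or the deposited normalized values, only *Slc27a1* of the 5 passed, and the difference of *Fabp4* was 0.147 or 0.152. *Cd36*, the main fatty acid receptor of the cardiomyocyte membrane, measured by a probe at mm9 chr5:17288600-17288659, was at 2.58, 2.81 and 3.00 in the NEXN-WT hearts and at 3.28, 3.17 and 3.22 in the NEXN-S437E hearts, a difference of 0.43 (standard error 0.15, unadjusted p = 0.023, adjusted p = 0.241 from limma). *Fabp3*, the fatty acid binding protein of heart muscle, was at 4.22, 4.48 and 4.54 against 4.69, 4.96 and 4.82, a difference of 0.41 (standard error 0.15), and its other probe, which overlaps the first in position, gave 0.46. *Fabp4*, the binding protein of adipocytes and capillary endothelium, was at 4.98, 5 and 5.16 against 5.36, 5.53 and 5.49, a difference of 0.41 (standard error 0.13), with 0.36 at its other probe. The SD of these 3 genes in the NEXN-WT hearts was at most 0.21, where the median over all tested probes was 0.23. *Slc27a1*, which encodes the transport protein FATP1, was at −1.08, −0.43 and −0.51 against 0.17, −0.19 and −0.22, a difference of 0.60 (standard error 0.21). It was 0.396 without NEXN-WT replicate 1 and 0.315 with weights that let an outlying array count less, and its call was lost without NEXN-S437E replicate 1 (0.475), with the methods' t-test, which takes the spread from each gene alone, and with the replicate number as a block. *Slc27a4*, which encodes FATP4, was not tested, since its brighter probe was detected on 2 arrays of the NEXN-WT group and on 1 of the NEXN-S437E group.

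*Lpl*, the lipase that acts at the capillary wall, was read by 6 probes spread along the gene. Its brightest probe was at 3.61, 3.94 and 3.78 in the NEXN-WT hearts and at 4.19, 4.03 and 4.42 in the NEXN-S437E hearts, a difference of 0.43 (standard error 0.16, unadjusted p = 0.0287, adjusted p = 0.255 from limma). In order of position along mm9 chromosome 8, from chr8:71405538 to chr8:71430326, the 6 probes gave differences of 0.76, 1.06, 1.36, 0.51, 0.45 and 0.43. The first 3 of these probes are dim, with NEXN-WT means of −3.09, −3.43 and −6.43, and the dimmest was detected on only 2 of the 3 NEXN-WT arrays. All 6 probes thus gave a positive difference, and the groups overlapped at 3 of them.

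The acyl-CoA synthetases, which couple fatty acids to coenzyme A, gave no call in either direction. *Acsl1*, the main isoform of heart muscle, was positive without overlap, with a difference of 0.44 (standard error 0.21, unadjusted p = 0.077, adjusted p = 0.349 from limma). The differences of *Acsl4* and *Acsl5* were −0.27 and −0.44 with overlap between the groups. Without NEXN-WT replicate 1 the values were 0.20 for *Acsl1*, −0.03 for *Acsl4* and −0.24 for *Acsl5*, and a second *Acsl5* probe gave 0.06. *Acsl5* was the single member to pass an unadjusted p of 0.05 on the lower side in any refit, with −0.573 when NEXN-WT replicate 2 was left out. *Acsl3* was not tested, since both of its probes were within background on all 6 arrays.

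In the carnitine shuttle, the 2 components of the inner membrane were higher and the other 3 genes did not pass the test. The count was 1 with the methods' t-test, 1 with the mean of all tested probes and 3 with normexp background correction. It ran from 0 (without NEXN-S437E replicate 3) to 2 when 1 array was left out. *Cpt2*, the carnitine palmitoyltransferase of the inner membrane, was at 2.41, 3.03 and 2.94 against 3.27, 3.39 and 3.55, a difference of 0.61 (standard error 0.19, unadjusted p = 0.0154, adjusted p = 0.217 from limma). A dimmer *Cpt2* probe gave 0.27 with overlap. *Slc25a20*, the carnitine-acylcarnitine carrier, was at −1.87, −1.36 and −1.25 against −1.08, −0.76 and −0.88, a difference of 0.59 (standard error 0.19). *Cpt1b*, the muscle isoform of the enzyme that gates entry into the mitochondrion, differed by 0.33 (standard error 0.19, 95% interval −0.11 to 0.78). *Cpt1a*, the isoform best known from liver, differed by −0.21 (standard error 0.21, interval −0.71 to 0.28), and by 0.004 without NEXN-WT replicate 1. *Crat*, carnitine acetyltransferase, differed by 0.44 with an interval that includes 0, and without that array *Cpt1b* and *Crat* each differed by 0.15. These intervals still contain differences as large as those of *Cpt2*, except that of *Cpt1a*.

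The acyl-CoA dehydrogenases catalyse the opening step of each round, with isoforms for different chain lengths, and 4 of the 7 tested were higher. The count ran from 1 (without NEXN-S437E replicate 2 or replicate 3) to 7 (without NEXN-WT replicate 3) when 1 array was left out. With quantile normalization or the deposited normalized values, only *Acadm* of the 4 passed, and *Acadl*, *Acadvl* and *Acad11* differed by 0.264 to 0.29. *Acadm*, the medium-chain enzyme, was at 3.64, 3.89 and 4.08 against 4.34, 4.59 and 4.51, a difference of 0.61 (standard error 0.16, unadjusted p = 0.00592, adjusted p = 0.17 from limma). *Acadl*, the long-chain enzyme, was at 2.73, 2.97 and 2.84 against 3.08, 3.38 and 3.42, a difference of 0.44 (standard error 0.15). *Acadvl*, the very-long-chain enzyme of the inner membrane, was at 4.28, 4.87 and 4.88 against 5.26, 5.05 and 5.13, a difference of 0.47 (standard error 0.19). Without NEXN-WT replicate 1, which lay far below the other 5 arrays, the difference of *Acadvl* was 0.27 and its call was lost (unadjusted p = 0.0669 from limma). *Acad11* was at 2.28, 2.63 and 2.71 against 2.97, 2.94 and 2.86, a difference of 0.38 (standard error 0.15), with 0.23 and overlap at a second tested probe and 0.25 at the first without that array, where its call was lost too. *Acads*, the short-chain enzyme, and *Acad8*, an enzyme of valine breakdown, differed by 0.48 and 0.32 without overlap and missed the threshold, with unadjusted p = 0.052 and 0.072 in limma, and *Acads* by 0.25 without that array. Of the other settings, *Acads* passed that threshold in 7 and *Acad8* in 3. *Acad9*, which is also an assembly factor of respiratory complex I, differed by 0.28 with overlap at its brightest probe and by 0.22, 0.03 and −0.14 at its other 3, and *Acad10* was not tested, being above background on 4 of the 6 arrays.

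The later steps of the cycle and the auxiliary enzymes for unsaturated chains had 10 of 11 genes higher and a median difference of 0.67. The count was 7 with quantile normalization, 8 with the deposited normalized values, 6 with the methods' t-test and 4 with the slide row as a block, and it ran from 7 (without NEXN-S437E replicate 3) to 10 when 1 array was left out. *Hadh*, the short-chain hydroxyacyl-CoA dehydrogenase, read at mm9 chr3:130936889-130936948, was at 2.88, 3.40 and 3.54 against 4.11, 4.01 and 4.04, a difference of 0.78 (standard error 0.19, unadjusted p = 0.0041, adjusted p = 0.158 from limma). *Echs1*, the short-chain enoyl-CoA hydratase, was at 2.91, 3.37 and 3.65 against 3.82, 3.91 and 4.02, a difference of 0.60 (standard error 0.20), with 0.69 at its other probe. *Hadha*, the subunit of the trifunctional protein with hydratase and dehydrogenase activity, was at 1.15, 1.93 and 1.80 against 2.33, 1.98 and 2.20, a difference of 0.55 (standard error 0.22). Its partner *Hadhb*, the thiolase subunit, transcribed in the opposite direction from the shared upstream stretch shown above, was at 5.02, 5.35 and 5.58 against 5.74, 5.82 and 6.00, a difference of 0.54 (standard error 0.18). The differences of the 2 subunits were alike in this fit. They were 0.473 for *Hadha* and 0.253 for *Hadhb* with quantile normalization, where neither passed the threshold, and 0.31 and 0.39 without NEXN-WT replicate 1, where the call of *Hadha* was lost. A second *Hadhb* probe gave 0.49, and the dimmest of its probes gave 0.12 with overlap.

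The enzymes that prepare unsaturated fatty acids for the cycle had 3 of the 4 largest differences. *Decr1*, the dienoyl-CoA reductase, read at mm9 chr4:15846075-15846134, was at 4.35, 4.82 and 5.01 against 5.56, 5.56 and 5.60, a difference of 0.85 (standard error 0.19, unadjusted p = 0.00225, adjusted p = 0.145 from limma), and it had the smallest p of any member. *Ech1*, the dienoyl-CoA isomerase, read at mm9 chr7:29616863-29617058, was at 3.91, 4.75 and 4.67 against 5.29, 5.38 and 5.32, a difference of 0.88 (standard error 0.23). *Eci1*, the enoyl-CoA isomerase, was at 2.99, 3.85 and 4.05 against 4.48, 4.44 and 4.48, a difference of 0.84 (standard error 0.27). In these 3 genes the NEXN-S437E arrays were nearly equal, and NEXN-WT replicate 1 lay well under the other NEXN-WT arrays. Without that array the differences were 0.66 for *Decr1*, 0.62 for *Ech1* and 0.52 for *Eci1*. *Eci2*, the related isomerase, was at 2.78, 2.89 and 2.94 against 3.30, 3.42 and 3.32, a difference of 0.48 (standard error 0.12), with the smallest standard error among the called members.

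Thiolases close the round by releasing acetyl-CoA. *Acaa2*, the mitochondrial thiolase, was at 5.10, 6.01 and 6.13 against 6.68, 6.48 and 6.43, a difference of 0.78 (standard error 0.27, unadjusted p = 0.0227, adjusted p = 0.24 from limma), and of 0.46 without NEXN-WT replicate 1. *Acat1*, the acetoacetyl-CoA thiolase, which also serves ketone body use, was at 2.11, 2.11 and 2.56 against 2.85, 2.92 and 3.02, a difference of 0.67 (standard error 0.16). *Acaa1a*, a thiolase of the peroxisome, was the 1 gene of this role that missed the threshold, with 0.18 (standard error 0.13) or 0.09 without that array, and its other probe gave 0.44.

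All 3 genes of electron transfer from the dehydrogenases to the respiratory chain were higher without overlap, and every one of their 7 probes passed an unadjusted p of 0.05 in limma. With the slide row as a block 0 of the 3 passed, and *Etfdh* lost its call without NEXN-S437E replicate 2 or replicate 3 (unadjusted p = 0.0513 and 0.0585 in limma). *Etfa*, the alpha subunit of the electron transfer flavoprotein, was at 3.73, 3.98 and 4.12 against 4.44, 4.61 and 4.67, a difference of 0.63 (standard error 0.15, unadjusted p = 0.00399, adjusted p = 0.157 from limma). *Etfb*, the beta subunit, was at 4.70, 5.45 and 5.35 against 5.91, 5.82 and 5.85, a difference of 0.70 (standard error 0.21). *Etfdh*, the oxidoreductase of the inner membrane that receives the electrons, was at 2.73, 3.05 and 3.30 against 3.44, 3.61 and 3.65, a difference of 0.54 (standard error 0.18). The other probes of these genes gave 0.54 and 0.56 for *Etfa*, 0.82 for *Etfb* and 0.60 for *Etfdh*.

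Acyl-CoA thioesterases release free fatty acids from coenzyme A. *Acot1*, the cytosolic enzyme, read at mm9 chr12:85358452-85358511, was at −1.27, 0.22 and −0.20 against 0.84, 0.72 and 0.45, a difference of 1.09 (standard error 0.36, unadjusted p = 0.0177, adjusted p = 0.224 from limma) and the largest of any member. Its size depended on NEXN-WT replicate 1, without which it was 0.66. *Acot2*, the mitochondrial enzyme encoded by the neighbouring gene, read at mm9 chr12:85334553-85334612, was at −0.66, −0.25 and −0.40 against 0.10, 0.23 and 0.42, a difference of 0.69 (standard error 0.16), and 0.58 without that array. The 2 enzymes are close in sequence, and cross-hybridisation between their probes was not tested. *Acot13* was at 4.50, 4.54 and 4.90 against 4.38, 5.11 and 5.04, so that NEXN-S437E replicate 1 was the lowest of the 6 arrays, and its difference was 0.19 (standard error 0.23) with overlap.

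The uncoupling proteins and the proteins at the lipid droplet gave no call, with overlap between the groups in all 4 genes. *Ucp2* and *Ucp3*, carriers of the inner membrane, differed by −0.10 and −0.15, and by 0.027 and 0.015 without NEXN-WT replicate 1. *Plin5*, which coats lipid droplets next to mitochondria, differed by 0.47 (standard error 0.26), or 0.16 without that array, and *Pnpla2*, the triglyceride lipase of the droplet, by 0.18 (standard error 0.16).

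When 1 array was left out at a time, 10 members were higher at an unadjusted p under 0.05 in limma in every one of the 6 refits, as were 2.63% of all genes. They were *Acadm*, *Hadh*, *Ech1*, *Eci1*, *Eci2*, *Decr1*, *Acat1*, *Etfa*, *Etfb* and *Acot2*. The other 16 of the 26 lost the call in at least 1 refit. With weights estimated for each array, which let an outlying array count less, 16 members passed an adjusted p of 0.05 in limma, as did 1361 of all genes. Among the 16 were *Decr1* (adjusted p = 0.013), *Acat1* (0.0152), *Etfa* (0.0156), *Hadh* (0.0189) and *Acadm* (0.019).

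**Figure D3:**
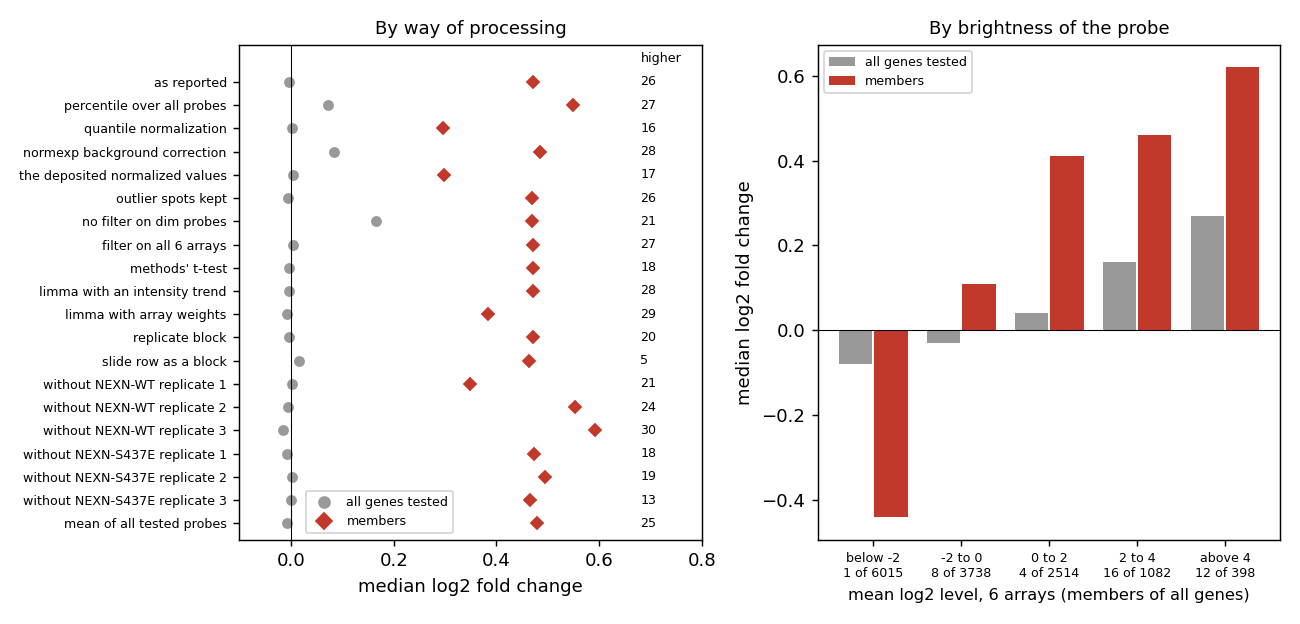
Left, medians of the log2 fold change for all tested genes (gray) and for the members (red) under each way of processing, with the number of members higher at an unadjusted p under 0.05 at the right edge. Right, the same medians by the mean level of the probe, with the number of members of all genes in each range. The member median lies between 0.296 and 0.591 in all settings, and above that of all genes in each range of level except the lowest, which holds 1 member.

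Genes around the pathway were described for comparison. Of 23 regulators of fatty acid oxidation, 2 were higher and 1 lower at an unadjusted p under 0.05 in limma, with a median difference of 0.20. *Pparg*, a nuclear receptor, was at 0.15, 0.38 and 0.41 against 1.15, 0.58 and 0.59 (difference 0.46), and *Klf15*, a transcription factor of cardiac lipid metabolism, was at 0.67, 0.98 and 0.82 against 1.37, 1.32 and 1.03 (difference 0.42). *Nrip1*, a corepressor of nuclear receptors, was at −1.93, −2.53 and −3.12 against −3.16, −3.39 and −3.25 (difference −0.74). Without NEXN-WT replicate 1, none of the 23 (0) passed an unadjusted p of 0.05 in limma, the median was 0.12 and *Nrip1* differed by −0.44. *Ppara* itself differed by 0.34 (standard error 0.29), and by 0.02 without that array, *Ppargc1a*, its coactivator, by 0.20 (standard error 0.20), and *Esrra*, an estrogen-related receptor, by 0.27 (standard error 0.15; 0.15 without that array), none past the threshold.

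Peroxisomes shorten very long chains by a parallel route, and 4 of 16 tested genes of that route were higher and 0 lower, with a median difference of 0.24. *Ehhadh*, the bifunctional enzyme, was at −3.93, −3.39 and −3.57 against −2.92, −2.92 and −2.88, a difference of 0.73 (standard error 0.17, unadjusted p = 0.00283, adjusted p = 0.149 from limma). *Pex11a*, which promotes peroxisome division, differed by 0.69 (0.43 without NEXN-WT replicate 1), *Nudt7*, a coenzyme A hydrolase, by 0.52 (0.33), and *Scp2*, a thiolase and lipid carrier, by 0.49. All 4 were without overlap.

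Of 11 tested PPAR-alpha targets outside the members, 3 were higher and 0 lower. *Cyp4b1* differed by 0.75, *Tmem143* by 0.72 and *Slc25a42*, the mitochondrial coenzyme A carrier, by 0.54. *Pdk4*, the kinase that shuts off pyruvate dehydrogenase and a well known target, was at 2.15, 1.91 and 0.20 against 2.17, 2.34 and 2.19, a difference of 0.81 (standard error 0.47) that did not pass the threshold. Without NEXN-WT replicate 1, 4 of the 11 were called: *Pdk4* (1.18), *Angptl4* (0.82, against 0.14 with all arrays), *Cyp4b1* (0.39) and *Tmem143* (0.39), while *Slc25a42* (0.32) was not. Of 18 tested genes of the lipid droplet and triglyceride turnover, 4 were higher and 0 lower. They were *Dgat2*, which catalyses the last step of triglyceride synthesis, at 3.13, 3.81 and 4.43 against 4.98, 4.69 and 4.87 (difference 1.06, standard error 0.30), *Plin3* (0.53, or 0.35 without NEXN-WT replicate 1), the lipoprotein receptor *Vldlr* (0.44) and *Gpihbp1* (0.43), which anchors lipoprotein lipase to the capillary. *Vldlr* (0.42) and *Gpihbp1* (0.31) were not called without NEXN-WT replicate 1, and *Angptl4*, which is also on this list, was. Genes of ketone body use gave 0 of 5 calls in limma in either direction, with a median of 0.22, and without NEXN-WT replicate 1 *Bdh1* was lower, by −0.45 against −0.24. All 18 genes of the tricarboxylic acid cycle were positive, with 5 past the threshold and a median of 0.38, and these 5 were *Idh3b* (0.63), *Idh3a* (0.52), *Idh2* (0.46), *Sdhd* (0.46) and *Suclg2* (0.38). The count was 3 and the median 0.23 without NEXN-WT replicate 1, with *Sdhd* and *Suclg2* no longer called and *Idh3b* at 0.40.

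**Figure D4:**
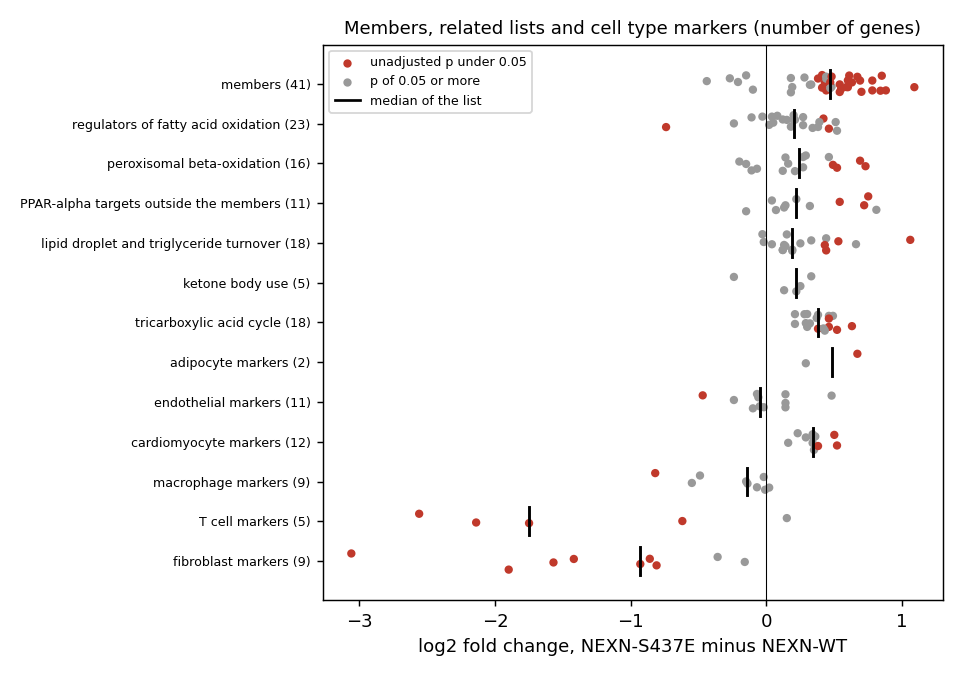
Each point is the log2 fold change (NEXN-S437E minus NEXN-WT) of a tested gene in the members, in lists of related pathways or in lists of cell type markers, in red where the unadjusted p is under 0.05. Black bars are the medians of the lists, and the number of genes is given in brackets. *Cd3g*, not well above background on the 3 NEXN-S437E arrays, is left out. The members have the median of 0.47, cardiomyocyte markers 0.35 and fibroblast markers −0.93.

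Markers of cell types moved with the groups too. In whole myocardium, fewer cells of a type and less RNA per cell cannot be told apart. The levels of a list were also summed on a linear scale, as multiples of the 75th percentile. All 12 cardiomyocyte markers were measured on every array and had positive differences, 3 past the unadjusted threshold (*Tnni3*, *Myh6* and *Mb*, at 0.52, 0.50 and 0.38), with a median of 0.35. Their summed level was 482.7 to 580.5 in the NEXN-WT hearts and 666.0 to 701.5 in the NEXN-S437E hearts, without overlap, and that of the 41 members 368.8 to 549.5 and 690.8 to 710.6. Without NEXN-WT replicate 1 the medians were 0.35 for the members and 0.27 for the cardiomyocyte markers, with *Tnni3*, *Myh6* and *Mb* at 0.29, 0.44 and 0.30.

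Fibroblast markers went the other way, with 7 of 9 lower, 0 higher and a median of −0.93. Their summed level was 105.6 to 183.7 in the NEXN-WT hearts, highest in replicate 1, and 72.9 to 78.8 in the NEXN-S437E hearts. *Postn*, made by activated fibroblasts, was at 3.71, 0.95 and 1.12 against −1.17, −1.23 and −0.99. The other larger differences were those of the collagens *Col1a1* (−1.90), *Col1a2* (−1.57) and *Col3a1* (−1.42) and of the receptor *Pdgfra* (−0.93). Of the 6 tested T cell markers 5 were lower, with a summed level of 0.523 to 0.699 against 0.240 to 0.272, and *Cd3g* was not well above background on the 3 NEXN-S437E arrays. The other 4 were *Cd3d* (−2.56), *Lck* (−2.14), *Cd2* (−1.75) and *Cd3e* (−0.62), and *Cd3d*, *Lck* and *Cd3g* passed an adjusted p of 0.05 in limma (0.0268, 0.0125 and 0.00118). Among the 9 macrophage markers *Fcgr1* was lower and 0 were higher, with summed levels of 13.7 to 19.0 against 14.5 to 15.0. The part of these shifts in cell type markers in the result for the members was not tested.

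*Cd36*, *Fabp4* and *Lpl* are also genes of adipocytes and of capillary endothelium. Of 9 adipocyte markers 7 were not tested, since *Plin1*, *Retn*, *Ucp1* and *Adrb3* were within background on all 6 arrays, *Adipoq* was above it on 1 array, and *Cidec* and *Cfd* on 3 and 4. *Lep* and *Slc36a2* were tested. *Slc36a2*, detected on all 6 arrays, was higher by 0.67 (unadjusted p = 0.0404 from limma), the same direction as the members, and by 0.38 without NEXN-WT replicate 1, where it was not called. Of 11 endothelial markers, all measured on every array, 0 were higher and 1 was lower, the tight junction gene *Cldn5* (−0.47), with summed levels of 39.5 to 47.1 in the NEXN-WT hearts and 39.4 to 47.4 in the NEXN-S437E hearts. The part of adipocytes and endothelium in the values of *Cd36*, *Fabp4* and *Lpl* was not tested.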

How the data were processed

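RNA from 6 hearts was hybridised to 6 Agilent arrays, 1 dye, on 1 slide read in 1 scan. The authors deposited spot intensities from Agilent Feature Extraction (version 10.7.1.1 in the submitters' processing notes), with background subtracted and no normalization between arrays, and normalized log2 values with the same distribution on all 6 arrays, as after quantile normalization. Probe coordinates are on mm9, and no genome of that build was used, so probes were not placed in exons or UTRs. No spot was saturated. The number of arrays limits the precision.

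From the intensities, log2 of the processed signal minus each array's 75th percentile over probes well above background on all 6 arrays was taken, because only 41.9% to 47.8% of the spots were above background. Control and outlier spots were left out, spots of a probe averaged, and the 22998 probes (13747 genes) that were above background throughout the 3 arrays of either group were tested by lmFit and eBayes of limma 3.58.1 (R 4.3.3, data.table version 1.17.8), with Benjamini-Hochberg adjustment over all probes. A gene was read by its tested probe of highest mean. Groups and replicate numbers came from the sample titles, and p-values measure the spread between these hearts. For a probe not well above background in a group, the bound sets the brighter group's mean against the higher of the dim probe's value and the lowest detected value on each array. limma was tested on simulated data with independent noise of equal spread on all arrays. The simulation held no outlying array and no slide row effect, so it does not bear on these. Figures used Python 3.11.15, numpy 2.4.6 and matplotlib 3.10.9.

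The members and lists were chosen with earlier results of these data known. Values on every array are given for members at an unadjusted p under 0.05, for the 10 of highest mean and for members whose probes disagree in direction with 1 past that p, and every member is named. Of other lists, genes past that p are named, at most 5 a list by size, and *Ppara*, *Ppargc1a*, *Esrra*, *Pdk4*, *Angptl4* and *Bdh1* were added after their values were seen, as was the division by level. Alternatives were the percentile over all probes, quantile normalization, normexp (offset 50), the deposited log2 values, outlier spots kept, other filters, the methods' t-test, an intensity trend, array weights, blocks for replicate number and slide row, each array left out, and the mean of all probes of a gene.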

Additional observations from a re-analysis of the deposited data

How the results depend on the processing

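The count of members higher at an unadjusted p under 0.05, 26 as reported, was 16 with quantile normalization (7.09% of all genes) and 17 with the deposited normalized values (7.06%), and it ran from 13 (without NEXN-S437E replicate 3, 4.1%) to 30 (without NEXN-WT replicate 3, 9.74%) when 1 array was left out. It was 5 with the slide row as a block (3.08%), a fit that sets NEXN-S437E replicate 1 alone against the 3 NEXN-WT arrays and assumes that it varies like the others. The count of lower members was 0 under every other setting and ran from 0 to 1 over the arrays left out. None passed the adjusted p (0, limma) under the other settings, and 16 did with array weights. The median difference was 0.296 with quantile normalization, 0.298 with the deposited values and 0.348 to 0.591 with 1 array left out, and the percentile over all probes moved the median of all genes to 0.073 and that of the members to 0.548. Signs turned for members without a call: *Cpt1a* (0.004), *Ucp2* (0.027) and *Ucp3* (0.015) without NEXN-WT replicate 1 (lowest of the values with 1 array left out −0.335, −0.177 and −0.276), *Ucp2* (0.028) with array weights, *Acot13* with quantile normalization and the deposited values (−0.016 each) and the slide row block (−0.263), and *Pnpla2* with that block (−0.072). The replicate number as a block left 20 members higher (5.98%), and the numbers did not pair the hearts, as same-numbered deviations correlated at −0.15, −0.03 and −0.18. The methods' t-test called 18 higher at an unadjusted p under 0.05 (7.07%) and 0 after Benjamini-Hochberg adjustment (smallest 0.279). The causes of these changes were not tested.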
